A study of Homo sapiens with 6 samples.

Results

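The genes described here are 10 effectors of secretory epithelium, of 61859 genes in the deposited table: the disulfide isomerases AGR2 and AGR3, the transcription factors XBP1, CREB3L1 and CREB3L4, the mucins MUC1, MUC4, MUC16 and MUC20, and the trefoil peptide TFF3. They were picked by symbol, with earlier results of these data known, and each symbol stood on its own row. RNA was sequenced from OSC19SSZR, an oral squamous cell carcinoma line resistant to sulfasalazine, after siRNA against FOXA1 (n = 3) or control siRNA (n = 3), both given with a lipid reagent for 48 h. Both groups are of this 1 resistant line, and the labels name no parental line and no further siRNA. The labels do not say whether replicates were separate cultures, so the p-values below speak of the variation among these 6 libraries alone, and part of it may be technical.

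Secretory cells pass their products through the endoplasmic reticulum (ER), where disulfide isomerases shape bonds between cysteines. AGR2 is the isomerase of mucus-making cells and is needed for mucin production in mouse intestine. XBP1 and the CREB3 family are membrane-linked or stress-activated transcription factors that enlarge the ER and the transport machinery. Mucins are heavily O-glycosylated proteins, either anchored in the membrane (MUC1, MUC4, MUC16) or secreted as gels (MUC2), and trefoil peptides are co-secreted with gel mucins. FOXA1, the factor silenced here, is a forkhead protein that opens chromatin in many epithelia.

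To show what stands at the starts of the genes that anchor the results, 3 RefSeq promoters (GRCh38.p14, 250 bases before to 50 after the start, printed 5′ to 3′ on the gene's strand) are given. They are AGR2, which fell, its neighbour and paralog AGR3, whose low counts were higher after knockdown, and XBP1, the single tested effector that rose. Coordinates on the minus strand are chr7:16804950-16805249 for AGR2, chr7:16881934-16882233 for AGR3 and chr22:28800520-28800819 for XBP1. The AGR2 window lies well inside the AGR2 gene model used below (16791811 to 16833433). It stands at a RefSeq start and not at the outer start of that model. Capitals mark the short forkhead core GTAAA in AGR2 and, in XBP1, the outer parts of the ER stress element (CCAAT, then 9 bases of any kind, then CCACG), the motif that the unfolded protein response uses. AGR3 held none of the searched motifs.
AGR2: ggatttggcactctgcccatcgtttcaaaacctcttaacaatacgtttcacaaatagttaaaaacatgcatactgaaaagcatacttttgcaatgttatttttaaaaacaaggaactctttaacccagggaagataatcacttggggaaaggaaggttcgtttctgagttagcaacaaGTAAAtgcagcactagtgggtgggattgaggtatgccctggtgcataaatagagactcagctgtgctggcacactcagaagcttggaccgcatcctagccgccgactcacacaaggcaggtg
AGR3: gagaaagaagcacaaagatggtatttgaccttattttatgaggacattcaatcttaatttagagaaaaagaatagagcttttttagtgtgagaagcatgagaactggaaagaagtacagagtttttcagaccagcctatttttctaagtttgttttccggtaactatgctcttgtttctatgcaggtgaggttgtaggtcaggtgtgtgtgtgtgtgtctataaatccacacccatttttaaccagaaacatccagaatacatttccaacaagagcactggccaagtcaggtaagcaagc
XBP1: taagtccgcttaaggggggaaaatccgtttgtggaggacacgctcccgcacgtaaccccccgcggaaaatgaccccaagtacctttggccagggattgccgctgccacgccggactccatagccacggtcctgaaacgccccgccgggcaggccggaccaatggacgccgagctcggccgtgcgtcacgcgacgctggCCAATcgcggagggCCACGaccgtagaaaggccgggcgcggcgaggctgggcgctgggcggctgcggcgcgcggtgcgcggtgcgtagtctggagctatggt

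Both strands were searched for 4 forkhead words, which were TGTTTAC (held by 3.42% of all promoters in the table), TATTTAC (held by 2.67%), TGTTTGC (held by 3.89%) and TATTTGC (held by 2.97%), and for the core GTAAA, the CREB3 family word TGACGTG and the ER stress element. The core GTAAA overlaps the reverse complements of the forkhead words that end in TTTAC. The core GTAAA was added after the AGR2 promoter had been read. Promoters of 8 of the 10 effectors were in the table, all but MUC20 and TFF3. None of these 8 held any of the 4 forkhead words, which 12.1% of the 35116 promoters in the table hold, and none held TGACGTG, which 1.97% hold. GTAAA stood in 3 of the 8 (AGR2, CREB3L4 and CREB3L1) and in 28.1% of all promoters. The ER stress element stood in XBP1 alone among the 8, starting 52 bases before the start, and in 0.0769% of all promoters. A match describes letters in this window and not a binding site. The windows of AGR2 and CREB3L1 lie well inside the gene models given below. Those of CREB3L4 (153968000 to 153968299) and MUC4 (195811880 to 195812179) also lie inside their models. That of MUC16 (9065702 to 9066001) lies outside its model (8848844 to 8981342). Other starts of these genes were not searched, so the motif results hold for these RefSeq windows alone.

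The libraries held 16510125 to 25732569 reads each, recovered from the deposited values. FOXA1 itself (chromosome 14, 37589984 to 37596059 in GENCODE 29 on GRCh38, minus strand) had 247, 192 and 189 normalized counts with FOXA1 siRNA, against 1477, 1378 and 1459 with control siRNA, a log2 fold change of -2.79 ± 0.09 (SE; limma adjusted p = 3.32e-18; exact two-sided permutation p = 0.1, the smallest that 3 against 3 samples allow). All 8 squamous markers looked up reached a mean of 10, with summed normalized counts of 52730 to 55320 after FOXA1 siRNA and 47110 to 49410 after control siRNA. Of these 8, KRT17, SFN and DSG3 rose (log2 fold changes of 1.01, 1.14 and 0.65), KRT5, TP63 and PKP1 fell (-0.18, -0.40 and -0.74), and KRT14 and KRT6A did not pass, so the higher sum was carried by KRT17 and SFN. KRT6A stood at 802 in control siRNA replicate 3 against 38.3 to 178 in the other libraries. Of 11 goblet and mucous cell markers, 3 reached a mean of 10 (MUC2, MUC6 and SPDEF), TFF2, CLCA1 and SCGB1A1 had no reads in any library, and the sum of the 11 was 15.4 to 37.9 after FOXA1 siRNA and 218 to 253 after control siRNA. Most of the control sum was SPDEF (159 to 169) and most of the rest MUC2 (47.4 to 61.8), while MUC6 did not pass. Fibroblast markers summed to 92.5 to 135 and 144 to 163, almost all COL1A1, with DCN and LUM at 0. Leukocyte markers summed to 2.14 to 7.59 and 9.42 to 12.4, and endothelial markers to 279 to 302 and 542 to 571, almost all CDH5. The part of any of these markers in the results was not tested.

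Of the 10 effectors, 6 averaged 10 or more normalized counts across the 6 libraries and were tested. All 6 were above 10 in both groups. AGR2, MUC16, MUC20, MUC1 and CREB3L4 fell and XBP1 rose at a limma adjusted p of 0.05 over 18460 genes. Across all tested genes 25.0% fell and 26.8% rose (51.8% in either direction), so a change at that threshold was common. A fall of at least 2-fold was rarer, at 5.33% of all tested genes, and AGR2, MUC16 and MUC20 were among them. MUC16 and MUC20 lay near that limit and fell short of it with quantile normalization (both -0.96 on the log2 scale). AGR2 stayed past it in every alternative. A fall of at least 1.5-fold, at 12.0% of tested genes, also took in MUC1. The groups did not overlap for any of the 6, as for 57.6% of tested genes. The median log2 fold change was -0.95 over the 6 and 0.0039 over all tested genes. Because the effectors were chosen with earlier results known, this difference may reflect that choice and was not tested. AGR3, MUC4, TFF3 and CREB3L1 were below the filter and are given as reads.

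**Figure D1:**
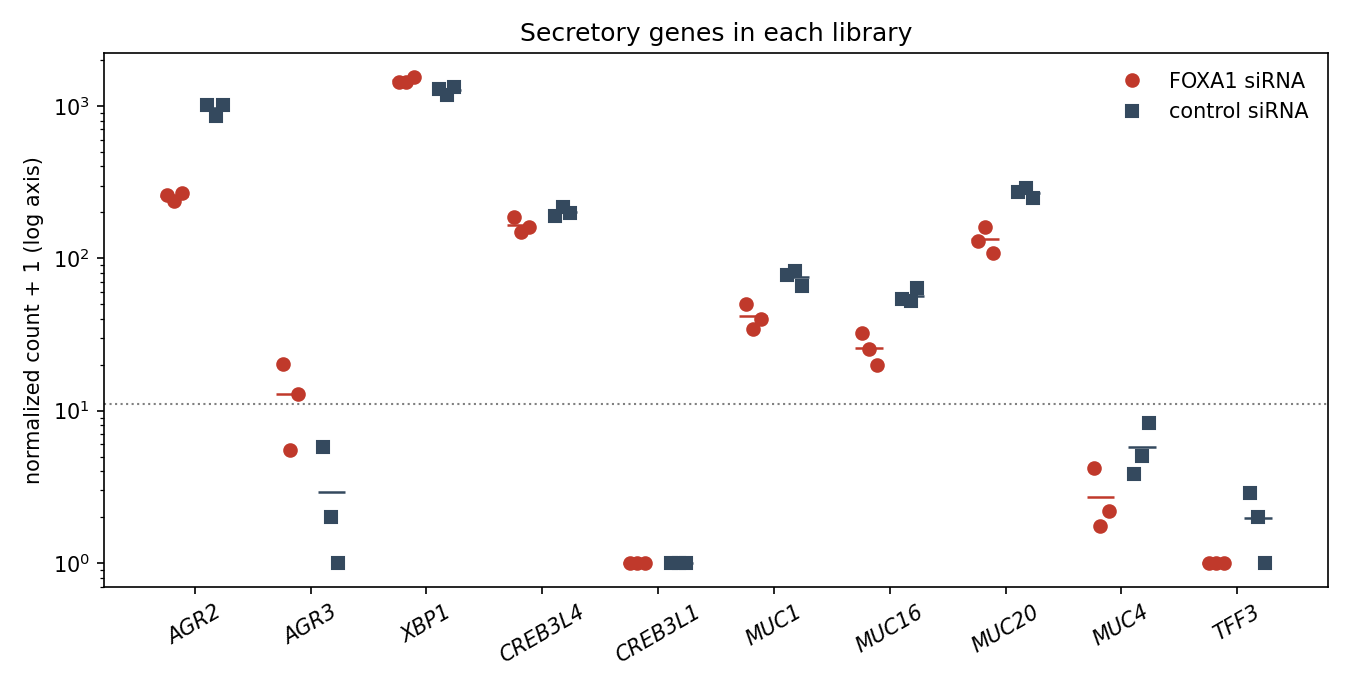
Normalized count + 1 (log axis) of the 10 secretory genes in each FOXA1 siRNA library (red circles) and control siRNA library (dark squares), with the group means of the counts as short lines and the filter at a mean of 10 as a dotted line. AGR2 stands at 236 to 267 against 862 to 1017, while XBP1 stands slightly higher after FOXA1 siRNA.

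Per kilobase of annotated exon, levels could be compared between genes only roughly. The annotation behind the authors' counting is not given in the sources used here, so the exon lengths of GENCODE 29 were used. These lengths join the exons of all annotated transcripts of a gene (43.83 kb for MUC16). They may exceed the length of the transcripts expressed here. XBP1 was the most abundant in both groups, at 486 ± 18.8 normalized counts per kb with FOXA1 siRNA and 419 ± 24.3 with control siRNA (SD, n = 3 each here and below). AGR2 came next, at 89.2 ± 5.60 and 338 ± 30.7 per kb. CREB3L4 was at 56.8 ± 6.78 and 69.2 ± 4.93 per kb, and MUC20 at 31.0 ± 6.32 and 63.3 ± 4.90. In control siRNA libraries CREB3L4 and MUC20 were within their spread of each other. MUC1 was at 8.61 ± 1.71 and 15.7 ± 1.82 per kb and the very long MUC16 at 0.565 ± 0.139 and 1.27 ± 0.139. AGR3 was at 10.3 ± 6.35 and 1.66 ± 2.16 per kb. After FOXA1 siRNA, AGR3 and MUC1 were thus within their spread, and after control siRNA so were AGR3, MUC16 and TFF3 (0.831 ± 0.815). MUC4 was at 0.0807 ± 0.0616 and 0.222 ± 0.109 per kb.

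AGR2 (ENSG00000106541; chromosome 7, 16791811 to 16833433, minus strand) fell most of the 6 tested effectors. Its normalized counts were 258, 236 and 267 in FOXA1 siRNA replicates 1, 2 and 3, against 1017, 862 and 1008 in control siRNA replicates 1, 2 and 3. Every knockdown library lay below every control library by a wide margin, and the 3 knockdown values were close together. The knockdown mean was 26.4% of the control mean, with a log2 fold change of -1.92 ± 0.08 (SE) and a limma adjusted p of 6.78e-17. Of the 18460 tested genes, 158 (0.856%) had a lower log2 fold change. In the authors' deposited table the log2 fold change of AGR2 is -1.93 with a standard error of 0.10.

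AGR3 (ENSG00000173467; chromosome 7, 16859405 to 16881987, minus strand), the paralog of AGR2 beside it and known from ciliated airway cells, did not follow it. Its reads were 18, 6 and 10 in FOXA1 siRNA replicates 1, 2 and 3, against 5, 1 and 0 in control siRNA replicates 1, 2 and 3. The normalized counts of these low reads were 19.3, 4.55 and 11.9, against 4.76, 1.01 and 0, so that FOXA1 siRNA replicate 2 overlapped control siRNA replicate 1. Summed over libraries there were 34 reads after FOXA1 siRNA and 6 after control siRNA, a ratio of 5.49 for normalized depth (exact 95% interval 2.28 to 16.0, for counting error only). AGR3 fell under the filter of the main test. Tested without a filter it was higher, by limma (log2 fold change 2.32, adjusted p = 6.16e-04) and by edgeR's quasi-likelihood test on the reads (log2 fold change 2.46, adjusted p = 0.00225). Without the filter, both tests gave far smaller adjusted p-values than with it for AGR2, FOXA1 and MUC20. For CREB3L4 they were larger (limma 0.0739 against 0.0413). Such p-values thus depend on the filter, and those of AGR3 may not reflect the spread among its own replicates. The log2 difference of AGR3 was 3.00 without control siRNA replicate 1 and 1.73 without control siRNA replicate 3, the ends of its range with a library left out, and 1.25 with a pseudocount of 5. The edgeR fit without a filter was added after the data were seen. The authors' deposited table gives AGR3 a log2 fold change of 2.58 with a standard error of 0.99 and an adjusted p of 0.0272.

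The log2 ratio of AGR2 to AGR3 within a library, on normalized counts + 1, was 3.68, 5.42 and 4.38 with FOXA1 siRNA, against 7.47, 8.75 and 9.98 with control siRNA. The ranges did not overlap, with a difference of -4.24, and the exact two-sided permutation test gave the smallest possible p of 0.1 (0.3 adjusted over the 3 ratios computed). AGR2 therefore remained far above AGR3 in every library. The nearest tested protein-coding genes on either side were TSPAN13, 7.3 kb away, and AHR, 34.4 kb away. TSPAN13 was at 2826 ± 255 and 2717 ± 119 normalized counts with FOXA1 siRNA and control siRNA (log2 fold change 0.05, but below 0 under equal totals and quantile normalization; limma adjusted p = 0.458). AHR, the aryl hydrocarbon receptor, fell by 0.22 on the log2 scale (SE 0.05, limma adjusted p = 4.30e-04).

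By the root mean square difference of mean-centred log2 values over the 6 libraries, the genes most like AGR2 among the 14512 genes that averaged 50 or more were PIK3R3 (0.055), the readthrough P3R3URF-PIK3R3 (0.072), SPTSSB (0.082), PPM1K (0.082) and ABCB10 (0.086). PIK3R3 and its readthrough share sequence, so their reads may be shared. These 5 had log2 fold changes of -1.85, -2.03, -1.98, -1.88 and -1.84. With 2 groups in 6 libraries the measure mostly picks genes with a fall of the same size.

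**Figure D2:**
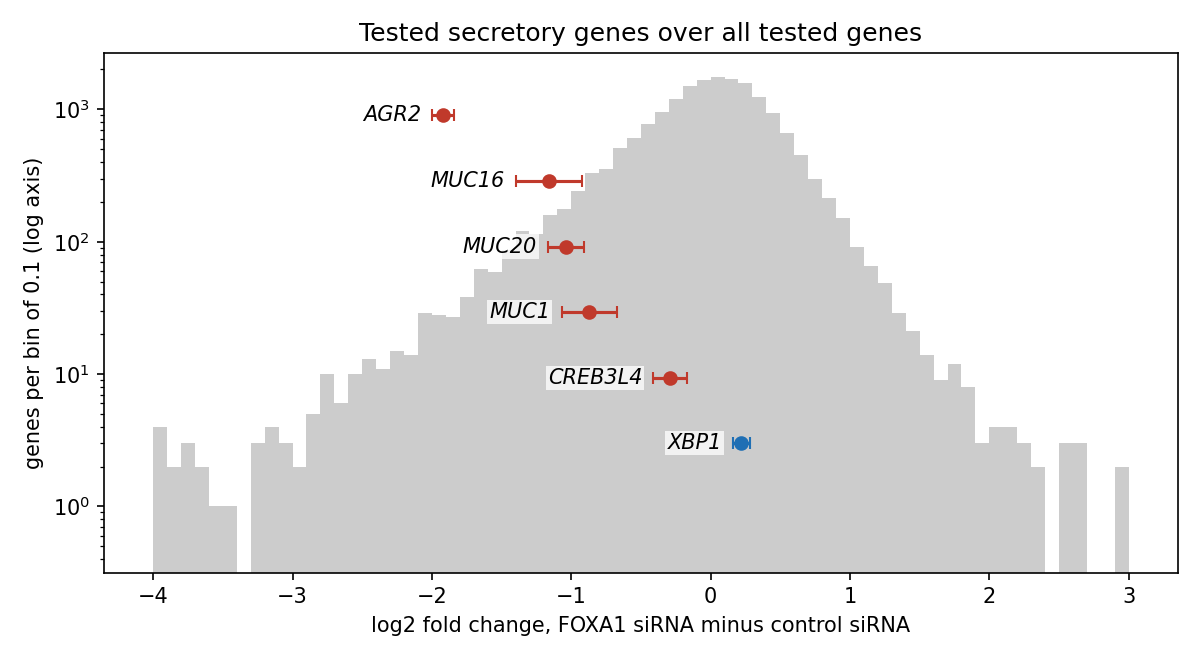
Log2 fold changes (FOXA1 siRNA minus control siRNA) of the 6 tested secretory genes with SE bars, over a histogram of all 18460 tested genes in bins of 0.1 on a log axis, with values beyond -4 and 3 placed in the end bins. The height of the points carries no meaning. AGR2 lies in the lower tail with 0.856% of tested genes below it, MUC16 and MUC20 have 3.99% and 4.99% below, and XBP1 lies within the bulk.

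Among the transcription factors, XBP1 (ENSG00000100219; chromosome 22, 28794555 to 28800597, minus strand), the effector of the IRE1 arm of the unfolded protein response, rose slightly. Its normalized counts were 1442, 1438 and 1538 with FOXA1 siRNA, against 1298, 1184 and 1322 with control siRNA. All 3 knockdown libraries stood above the controls, by a small margin. This was a log2 fold change of 0.22 ± 0.06 (SE), with a limma adjusted p of 0.00315, and 69.9% of tested genes had a lower one. With each library scaled to an equal total the change of XBP1 did not pass (log2 fold change 0.12, adjusted p = 0.0929, where its alternatives spanned 0.00167 to 0.0929). Gene counts do not separate spliced from unspliced XBP1, so the active form was not measured.

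CREB3L4 (ENSG00000143578; chromosome 1, 153967534 to 153974363, plus strand), a CREB3 family factor known from prostate, fell by a small amount that rested on the setting. It had 187, 148 and 160 normalized counts with FOXA1 siRNA, against 189, 217 and 197 with control siRNA. The highest knockdown library, replicate 1, nearly touched the lowest control library. This was a log2 fold change of -0.29 ± 0.12 (SE), with a limma adjusted p of 0.0413. The fall of CREB3L4 did not pass in 10 of its 17 alternatives (adjusted p 0.00853 to 0.177 over all of them). Without FOXA1 siRNA replicate 2 the adjusted p was 0.177 and without replicate 3 it was 0.0807, and without control siRNA replicate 2 or 3 it was 0.161 or 0.0683. With the replicate number as a block it was 0.0577. It does not pass in the authors' deposited table either (adjusted p 0.149). Exons of CREB3L4 overlap SLC39A1 and JTB on the opposite strand, and whether the counts kept strand is not given in the sources used here. SLC39A1 was at 2009 ± 123 and 2036 ± 56.2 normalized counts, and JTB at 1570 ± 68.9 and 1245 ± 43.7, higher after knockdown (log2 fold change 0.33 ± 0.06, limma adjusted p = 1.80e-05). Both were far more abundant than CREB3L4, and their part in its value was not tested. SLC39A1 and JTB were named after their values were seen.

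CREB3L1 (ENSG00000157613; chromosome 11, 46277661 to 46321422, plus strand), the family member that drives secretion in bone and glial cells, had 0 reads in all 6 libraries, which allows up to 3 reads per library for counting error. No ratio of CREB3L4 to CREB3L1 was therefore made. Among 5 further genes of the CREB3 family and its processing, 4 were tested, of which 1 rose and 2 fell (26.8% and 25.0% over all tested genes; median log2 fold change -0.09). CREB3L2, a close relative of CREB3L1, rose, with 1276, 1254 and 1254 normalized counts after FOXA1 siRNA, against 850, 946 and 962 after control siRNA (log2 fold change 0.46 ± 0.06, limma adjusted p = 5.41e-07). The genes of the Golgi proteases that release these factors from the membrane both fell, MBTPS2 by 0.61 and MBTPS1 by 0.21 on the log2 scale (limma adjusted p = 4.84e-06 and 0.00121). CREB3 was at 583 ± 45.4 and 571 ± 51.9 normalized counts.

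MUC20, MUC16 and MUC1, the listed mucins with enough counts to test, all fell. MUC20 (ENSG00000176945; chromosome 3, 195720882 to 195741123, plus strand), a small mucin of kidney and other epithelia, had 129, 160 and 107 normalized counts with FOXA1 siRNA, against 269, 290 and 248 with control siRNA. No knockdown library reached a control library, although replicate 2 was higher than the other two. This was a log2 fold change of -1.04 ± 0.13 (SE), with a limma adjusted p of 1.46e-07. Exons of MUC20 overlap the noncoding MUC20-OT1 on the same strand, which had 370, 422 and 268 normalized counts after knockdown, against 451, 422 and 369 in controls (log2 fold change -0.25 ± 0.16, limma adjusted p = 0.226). In both genes replicate 2 was the highest knockdown library and replicate 3 the lowest. MUC20-OT1 passed as lower by limma without FOXA1 siRNA replicate 2 (log2 fold change -0.39, adjusted p = 0.0133). It also passed with no filter on low values (0.0324) and with the replicate number as a block (0.0334), where its alternatives spanned 0.0133 to 0.614. The pseudogene MUC20P1 was at 42.8 ± 5.37 and 63.8 ± 9.05 normalized counts (log2 fold change -0.56 ± 0.20, limma adjusted p = 0.0215), which did not pass without FOXA1 siRNA replicate 3 (0.0683) or control siRNA replicate 1 (0.0867) or 2 (0.0794), where its alternatives spanned 0.00812 to 0.117. Reads may be shared among these 3, so the value of MUC20 is uncertain to that extent. MUC20-OT1 and MUC20P1 were set beside it after their values were seen.

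MUC16 (ENSG00000181143; chromosome 19, 8848844 to 8981342, minus strand), the membrane mucin that carries the CA125 antigen, had 31.1, 24.3 and 19.0 normalized counts with FOXA1 siRNA, against 53.3, 51.4 and 62.8 with control siRNA. The groups were clearly apart. MUC16 changed by -1.16 ± 0.24 on the log2 scale (SE), with a limma adjusted p of 1.97e-04. MUC1 (ENSG00000185499; chromosome 1, 155185824 to 155192916, minus strand), the membrane mucin found on most glandular epithelia, had 49.3, 33.4 and 39.1 normalized counts with FOXA1 siRNA, against 76.1, 81.7 and 64.9 with control siRNA. All 3 knockdown libraries lay under the lowest control. MUC1 changed by -0.87 ± 0.20 on the log2 scale (SE), with a limma adjusted p of 7.21e-04. A further protein-coding gene model, ENSG00000273088, overlaps exons of MUC1 on the same strand and was at 528 ± 36.9 and 497 ± 51.2 normalized counts, so that shared reads could have gone to either.

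MUC4 (ENSG00000145113; chromosome 3, 195746765 to 195812277, minus strand), a membrane mucin that pairs with the receptor ERBB2, was barely detected. Its reads were 3, 1 and 1 with FOXA1 siRNA, against 3, 4 and 7 with control siRNA. The groups overlapped, and control siRNA replicate 3, the library in which KRT6A stood apart, had 7 of the 14 control reads. The summed 5 against 14 reads gave a ratio of 0.346 for normalized depth (exact 95% interval 0.0976 to 1.02, for counting error only). Without a filter MUC4 did not pass by limma (adjusted p = 0.234) or edgeR (0.299). A difference was not detectable at this depth. The within-library log2 ratio of MUC4 to MUC20 differed by -0.07 and that of MUC1 to MUC4 by 0.24 between FOXA1 siRNA and control siRNA (exact two-sided permutation p = 0.9 and 0.7, both 0.9 adjusted over the 3 ratios). Both differences changed sign with a pseudocount of 5 and without control siRNA replicate 3, where they were 0.30 and -0.16, and that of MUC4 to MUC20 also without FOXA1 siRNA replicate 2 (0.35).

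TFF3 (ENSG00000160180; chromosome 21, 42311667 to 42315651, minus strand), the trefoil peptide of goblet cells, had 0 reads in the 3 FOXA1 siRNA libraries and 2, 1 and 0 reads in the control siRNA libraries. The 3 reads are at the limit that a count of 0 allows, so no fold is given. Of the other trefoil peptides, TFF1 had 0 reads after FOXA1 siRNA and 2 after control siRNA, and TFF2 had none in any library. The nearest tested protein-coding genes were ABCG1, 14.4 kb away, a cholesterol exporter that fell (log2 fold change -1.56 ± 0.09, limma adjusted p = 1.44e-14), and RSPH1, 156.8 kb away, a gene of the ciliary axoneme that also fell (-0.61 ± 0.21, limma adjusted p = 0.0161). RSPH1 did not pass without control siRNA replicate 1 (adjusted p = 0.0770) or 2 (0.0651), where its alternatives spanned 0.00612 to 0.0933. Beside the MUC4 and MUC20 pair, TNK2, 51.1 kb away, was at 1062 ± 83.9 and 1138 ± 65.6 normalized counts (limma adjusted p = 0.207). Scaling to equal totals (adjusted p = 0.0155) or by quantiles (0.0396) made TNK2 pass as lower. On the other side, 136.7 kb away, the lipocalin gene APOD fell to 18.9 ± 2.73 normalized counts with FOXA1 siRNA, against 169 ± 19.1 with control siRNA (log2 fold change -3.10 ± 0.19, limma adjusted p = 2.09e-13).

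Beyond the listed 4 mucins, 18 further mucins and mucin-like genes were looked up, of which 5 were tested, with 2 lower and 1 higher (25.0% and 26.8% over all tested genes). The 2 lower include MUC12, which entered the test through its control libraries alone, so nothing is drawn from this count. MUC2, the gel-forming mucin of goblet cells, had 10.7, 17.5 and 5.93 normalized counts with FOXA1 siRNA, against 61.8, 47.4 and 57.5 with control siRNA. This was a larger relative fall than that of any of the listed mucins in the fitted values (log2 fold change -2.30 ± 0.32, limma adjusted p = 8.43e-07), a difference between genes that was not tested. MUC12, a membrane mucin of the colon, had 7.50, 2.28 and 5.93 against 29.5, 21.2 and 17.8 normalized counts (log2 fold change -2.01 ± 0.44). MUC12 passed the filter through its control libraries alone, so no p-value is given for it. The antisense MUC12-AS1 had 3.22, 1.52 and 5.93 against 21.9, 16.1 and 17.8 normalized counts. Reads of the pair may be shared if strand was not kept, and overlap of their exons was not checked. MUC12-AS1 also passed the filter through its control libraries alone, and it was named after its values were seen. MUC6 (12.0 ± 3.82 and 12.7 ± 2.24 normalized counts) and MUC3A (19.0 ± 7.50 and 18.3 ± 2.43) did not pass (limma adjusted p = 0.855 and 0.978). CD164, a widely expressed sialomucin, rose by 0.16 on the log2 scale (limma adjusted p = 0.00752), a call lost when totals were made equal (0.06, adjusted p = 0.279). The airway gel mucins MUC5AC and MUC5B had 2 and 2 reads summed over FOXA1 siRNA libraries and 1 and 10 over control siRNA libraries, with MUC5B mostly in control siRNA replicate 3.

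**Figure D3:**
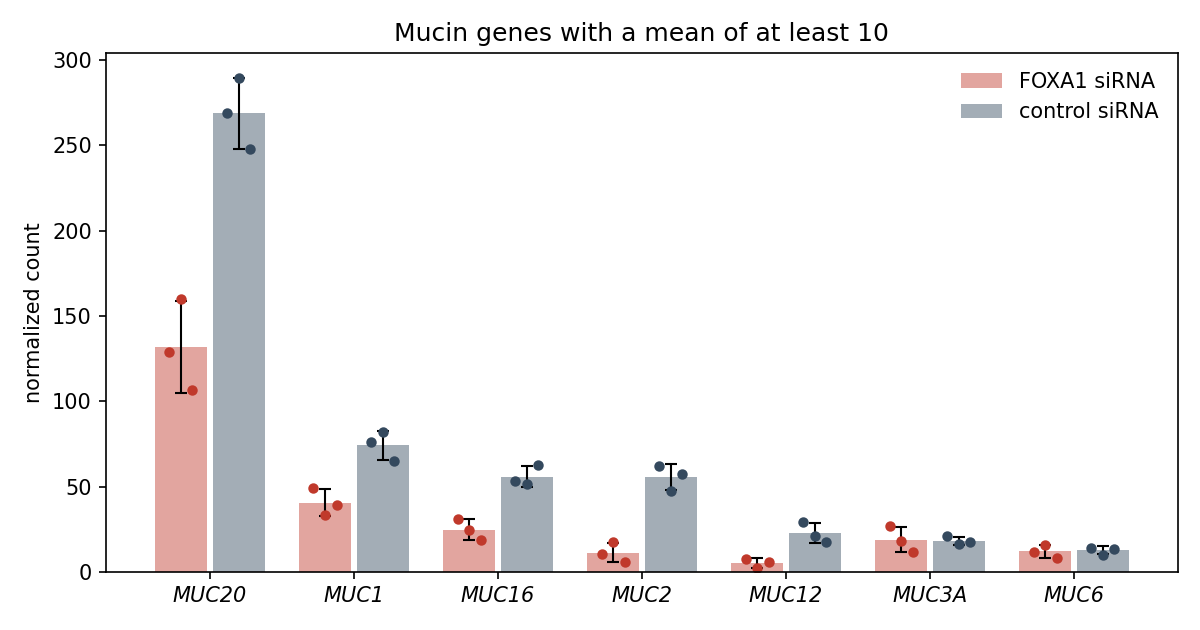
Normalized counts of the 7 MUC genes with a mean of at least 10 over the 6 libraries, as group means (bars), SD (error bars) and single libraries (points), with FOXA1 siRNA in red at the left of each pair and control siRNA in grey. MUC20, MUC1, MUC16 and MUC2 stand lower in every FOXA1 siRNA library, and MUC3A and MUC6 overlap. MUC12 also stands lower, but it reached the mean of 10 through its control libraries alone. The groups did not overlap for 57.6% of all tested genes.

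Of 26 tested genes listed for mucin-type O-glycosylation, 7 rose and 7 fell (median log2 fold change -0.14, with 12 lower under equal totals). Whether each of them acts on mucins in these cells was not tested. Both shares as deposited were near those over all tested genes, 26.8% higher and 25.0% lower. With equal totals 3594 of the 18460 tested genes were higher and 5967 lower. The falls were led by FUT3 (log2 fold change -1.42 ± 0.08), the Lewis fucosyltransferase, whose reads may be shared with close paralogs, then by the sialyltransferase gene ST6GALNAC6 (-1.02 ± 0.10) and GALNT6 (-0.97 ± 0.20), which starts O-glycan chains. FUT3 had 239, 257 and 223 normalized counts after FOXA1 siRNA, against 637, 607 and 685 after control siRNA. The rises were led by ST3GAL1 (0.88 ± 0.08), which caps core chains with sialic acid, GALNT3 (0.79 ± 0.06) and GCNT1 (0.76 ± 0.12), which makes branched cores.

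Of 16 other disulfide isomerases tested, 6 rose, 2 fell and 8 did not pass, where 26.8% of all tested genes rose and 25.0% fell. Their median log2 fold change was 0.08, and the list was not tested against AGR2. With equal totals 3 rose and 3 fell, and with quantile normalization 3 rose and 4 fell, with medians of -0.02 and -0.01. Over all 18460 tested genes 3594 rose and 5967 fell with equal totals, and 9434 passed in either direction with quantile normalization. TMX4, a transmembrane isomerase, fell the most of the list, with 1039, 979 and 1053 normalized counts after FOXA1 siRNA, against 2179, 1951 and 2074 after control siRNA (log2 fold change -1.01 ± 0.06, limma adjusted p = 3.38e-14). PDIA4 fell by 0.17 on the log2 scale (limma adjusted p = 0.00569), a call lost when control siRNA replicate 3 was left out (-0.13, adjusted p = 0.0677), which also left 1 fall in the list, and where its alternatives spanned 2.52e-06 to 0.0801. PDIA5 (0.70 ± 0.11), TXNDC12 (0.57 ± 0.06), the third AGR family protein, and TMX2 (0.43 ± 0.05) rose. TXNDC12 had 1807, 1805 and 1961 normalized counts after FOXA1 siRNA, against 1288, 1165 and 1304 after control siRNA.

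Of 31 tested genes of the unfolded protein response, to which XBP1 belongs, 12 rose and 10 fell, beside 26.8% and 25.0% of all tested genes. Their median log2 fold change was 0.07. With equal totals 9 rose and 11 fell, with a median of -0.03, where 3594 of all 18460 tested genes rose and 5967 fell. MANF (0.48 ± 0.07), SERP1 (0.43 ± 0.05) and HYOU1 (0.41 ± 0.05), which help folding or stabilise proteins in the ER, rose. SEL1L, a core of the ER degradation machinery, fell most, to 1439, 1374 and 1430 normalized counts after FOXA1 siRNA, against 3398, 3350 and 3339 after control siRNA (log2 fold change -1.25 ± 0.05, limma adjusted p = 2.03e-17). DERL1, of the same machinery, fell by 0.48 on the log2 scale, and the oxidase gene ERO1B by 0.63, a call lost with quantile normalization (adjusted p = 0.0669). HSPA5, the main ER chaperone, was at 12140 ± 367 and 12550 ± 206 normalized counts (limma adjusted p = 0.360). ERN2, the IRE1 paralog of mucous epithelia, had 78.3, 68.3 and 66.4 normalized counts after FOXA1 siRNA, against 29.5, 25.2 and 23.0 after control siRNA (log2 fold change 1.42 ± 0.22, limma adjusted p = 3.08e-06). HSPA5 and ERN2 were named after their values were seen.

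Among 28 tested genes of ER-to-Golgi transport, 11 rose and 7 fell (median log2 fold change 0.11; 7 and 10 with equal totals). Over all tested genes 26.8% rose and 25.0% fell, and with equal totals 3594 of the 18460 rose and 5967 fell. TMED9, a cargo receptor, fell by 1.11 on the log2 scale (SE 0.05, limma adjusted p = 3.04e-16), the COPII coat gene SEC24D by 0.58 and the KDEL receptor gene KDELR2 by 0.40. TMED2 (0.43 ± 0.05), SEC22B (0.33 ± 0.08) and MIA2 (0.33 ± 0.07) rose.

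Of 14 other regulators of secretory lineages, 8 were tested, with 3 higher and 3 lower (median log2 fold change -0.07), where 26.8% of all tested genes were higher and 25.0% lower. SPDEF, the goblet cell factor, had 2.14, 0 and 1.19 normalized counts after FOXA1 siRNA, against 169, 159 and 165 after control siRNA. It passed the filter through its control libraries alone and is counted among the 3 lower, so nothing is drawn from that count. KLF5 and ELF3 fell by 0.16 and 0.14 on the log2 scale (limma adjusted p = 0.0234 and 0.0322). Neither KLF5 nor ELF3 passed without FOXA1 siRNA replicate 2 (0.122 and 0.0910), control siRNA replicate 1 (0.0778 and 0.0519) or control siRNA replicate 2 (0.0854 and 0.0978), which left 1 fall in the list each time, and ELF3 also not without control siRNA replicate 3 (0.0924) or with the replicate number as a block (0.0568). Over their alternatives the adjusted p ranged from 6.10e-04 to 0.122 for KLF5 and from 6.47e-04 to 0.0978 for ELF3. KLF4 (0.57 ± 0.14) and SOX9 (0.51 ± 0.09) rose. BHLHA15, a factor of mature secretory cells that acts with XBP1 in mouse glands, rose too and was named after its values were seen, with 74.0, 54.6 and 60.5 normalized counts against 34.2, 25.2 and 35.6 (log2 fold change 0.97 ± 0.22, limma adjusted p = 5.35e-04).

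**Figure D4:**
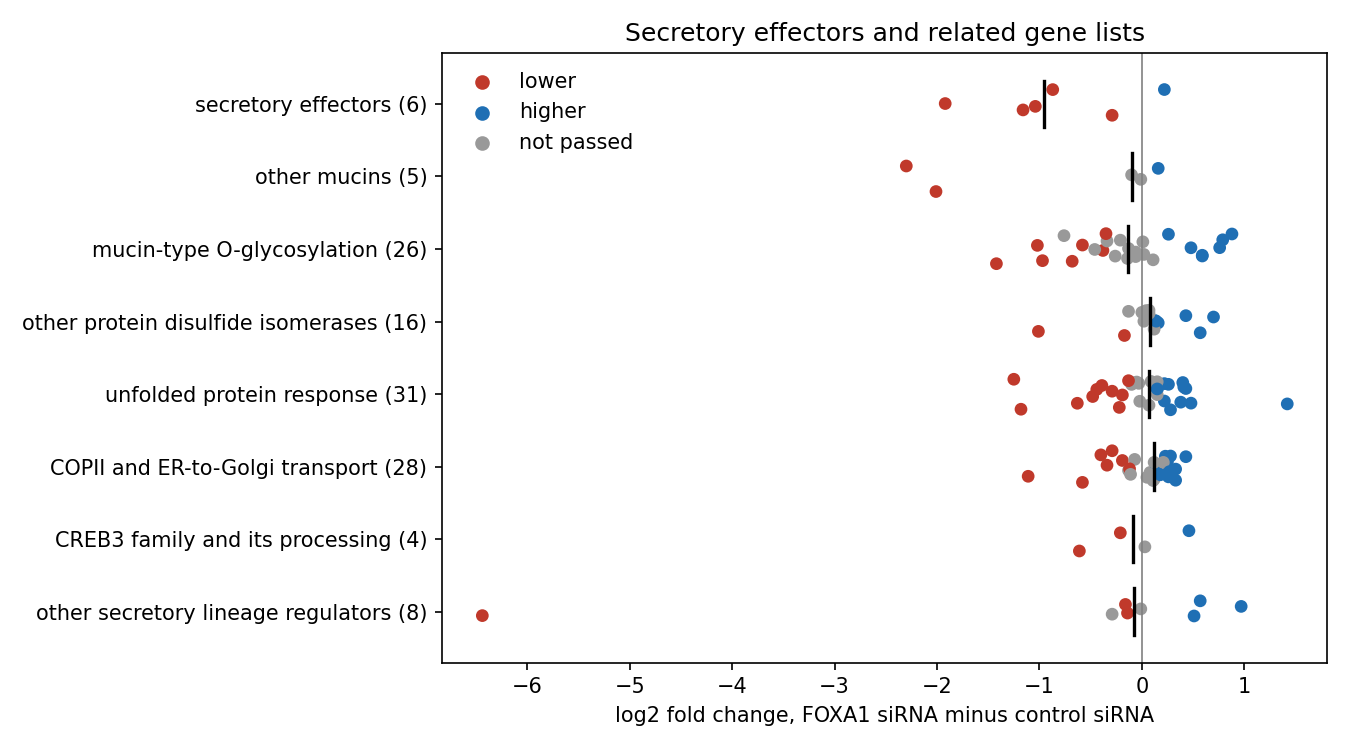
Log2 fold change (FOXA1 siRNA minus control siRNA) of each tested gene in the secretory effectors and 7 related lists, coloured by direction where the limma test passed and grey where it did not, with the list median as a black line and the number tested in brackets. The medians of the 7 lists lie between -0.14 and 0.11 and that of the 6 effectors at -0.95, and SPDEF is the point at -6.44. SPDEF had 3 reads in all after FOXA1 siRNA, and its value spanned -7.41 to -4.81 over the alternatives. SPDEF and MUC12 passed the filter through their control libraries alone. Effectors and lists were chosen with earlier results of these data known, and the difference between medians was not tested.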

How the data were processed

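RNA of 6 samples, grouped by their titles, was sequenced. The submitters' processing notes list HISAT2 and DESeq2 as tools and 2 builds, GRCh38 and GRCm38, with no role for any of them, and the counter, annotation and strand setting are not given in the sources used here. Per the labels' protocols, the kit was NEBNext Ultra RNA. The deposited table gives, per the file headers, a normalized signal for each gene in each sample, whose values behave as counts over size factors, and the authors' own log2 fold change, its error, a test score and a p-value. Of 61862 lines, 3 were malformed and left out, and 27396 genes had no reads. Values were whole multiples of 1 step per library to within 0.01 read in 100% of cases, so reads were recovered.

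The main test was limma 3.58.1 (trend and robust options) in R 4.3.3 on log2(normalized count + 1) for 18460 genes with a mean of at least 10, with Benjamini-Hochberg adjustment at 0.05 over all of them. The added 1 shrinks fold changes of low genes. Ratios were tested by exact permutation. No batch is labelled. The members and lists were chosen with earlier results of these data known. Named genes were the 10 members and FOXA1, up to 3 rises and 3 falls by size per list (mean of at least 50), other mucins and trefoil peptides with a mean of at least 10, the nearest tested protein-coding neighbours, and the 5 genes most like AGR2. Lists covered other mucins, O-glycosylation, other isomerases, the unfolded protein response, ER-to-Golgi transport, the CREB3 family, other trefoil peptides and other secretory regulators. EdgeR 4.0.16 called 9653 and DESeq2 1.42.0 8493 genes on the recovered reads. In simulated data for this comparison of 18460 genes, limma called 62 of 67 genes changed 1.5-fold, 65 of 67 changed 2-fold and 66 of 66 changed 4-fold, all with a mean of at least 50, and 12 unchanged genes. No other genes were changed, a far smaller share than the 51.8% called in the data. The simulation does not cover changes under 1.5-fold, such as those of XBP1 and CREB3L4, or MUC16, whose mean was 40.3. The chi-square per gene between replicates was 2.51 to 5.14, above the sampling noise. Intervals cover counting error only.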

Additional observations from a re-analysis of the deposited data

How the results depend on the processing

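The fall of AGR2, MUC1, MUC16 and MUC20 kept its direction and passed under each alternative run for them (MUC16 had no value at a mean of at least 50; log2 fold changes of -2.01 to -1.87, -1.01 to -0.70, -1.33 to -0.96 and -1.19 to -0.90). The number of the 10 effectors lower was 4 or 5 throughout, and the number higher was 0 with equal totals, where XBP1 did not pass, and 2 with no filter on low values by limma and with edgeR without a filter, where AGR3 was tested. With each replicate left out in turn, the counts were 4 to 5 lower and 1 to 1 higher. Over all genes the alternatives gave 3558 to 5967 lower and 3594 to 4976 higher. Equal totals moved the median log2 fold change of all genes to -0.093 and the split over all genes to 3594 higher and 5967 lower, against 4954 and 4617 as deposited. With the replicate number as a block, 4 effectors were lower and 1 higher, CREB3L4 and ELF3 lost their calls and MUC20-OT1 gained one, and no other named gene changed its call; over all genes 4837 were higher and 4495 lower. Same-numbered libraries did not deviate together (correlations of -0.01, 0.011 and -0.011), so the numbers were not taken to pair samples.

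The difference in the log2 ratio of AGR2 to AGR3 was -3.15 with a pseudocount of 5 and -4.87 to -3.62 with a replicate left out. That of MUC4 to MUC20 was 0.49 with a pseudocount of 5 and -0.44 to 0.35 with a replicate left out, and that of MUC1 to MUC4 was -0.28 and -0.16 to 0.51; MUC4 has few reads, and the cause was not tested. Signs turned for 4 genes that never passed. MUC3A was at 0.05 with DESeq2, 0.06 with edgeR without a filter, 0.04 with edgeR, 0.22 with quantile normalization and -0.29 to 0.27 with a replicate left out. MUC6 was at 0.17 with quantile normalization and -0.31 to 0.12 with a replicate left out. SLC39A1 was at -0.06 to 0.03 with a replicate left out. TSPAN13 was at -0.04 with equal totals, -0.05 with quantile normalization and -0.02 to 0.10 with a replicate left out. Among the related lists, counts not given above that moved by more than 1.5 times were the isomerases when limma ran with neither trend nor robust option (3 higher, 1 lower), the other mucins (0 higher with equal totals, with quantile normalization and without those options; 0 lower at a mean of at least 50) and the regulators at a threshold of 0.01 (1 lower). Depth limits AGR3, MUC4 and TFF3, which have 40, 19 and 3 reads in all.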
